A study of Mus musculus with 10 samples.

Results

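Translation initiation factors are the proteins that load the first transfer RNA and a messenger RNA onto the small ribosomal subunit, find the start codon and let the large subunit join. They were taken as the genes whose single platform symbol starts with Eif and a digit, without the eIF2 kinases, the eIF4E-binding proteins, the eIF4E transporter and pseudogenes, each represented by its brightest row. The rule gave 41 genes of the 30142 genes with a single-symbol row, and 39 of them lay above the signal floor of log2 5.24 and were tested. The cells were 4T1, an established mouse mammary carcinoma line, seeded at 50000 and grown for 5 days in gels of 3.5 mg/mL collagen (HD, 5 arrays) or 2 mg/mL collagen (LD, 5 arrays). Both groups had the same RPMI medium with 10% serum, renewed on day 3, and differed in the labels by collagen density alone. Whole-transcript RNA was measured on 1-colour Affymetrix mouse arrays, so values are log2 signals after RMA, which compresses folds, and the number of arrays limits the precision. Whether the 5 samples of a group came from independent cultures is not said in the labels. Each p-value below therefore rests on the scatter among these arrays, part or all of which may be technical.

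In outline, eIF1 and eIF1A hold the small subunit open for scanning, eIF2 brings the initiator Met-tRNA as a complex with GTP, and eIF2B recharges eIF2 with GTP. The large eIF3 complex is the scaffold on the small subunit, and the eIF4 proteins bind the cap and unwind the messenger. After the start codon is found, eIF5B joins the large subunit. Initiation is the main step at which cells set the rate of protein synthesis, and the factor genes are widely expressed in growing cells.

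In HD gels 25 of the 39 tested initiation factor genes were called higher and 3 lower (limma, Benjamini-Hochberg adjusted p under 0.05 over 17800 genes), that is 64.1% and 7.69% of them, against a background of 31.4% and 19.5% of all genes tested. Together 28 were called (71.8%, background 50.9%) and 11 were not (28.2%, background 49.1%). The changes were small. The median difference of the members, HD minus LD, was 0.13 on the log2 scale, against 0.055 for all genes tested. The difference of 10 members exceeded 1.25-fold upward (25.6%, against 7.37% of all genes tested). A fall of more than 1.25-fold was seen in 1 (2.56%, against 5.71% of all genes tested). In 20 members all HD arrays lay above all LD arrays and in 2 all lay below, where 21.6% and 15.1% of all genes tested did so. The largest rise was in Eif5a2 and the largest fall in Eif4b.

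The share of members that rose depended on how the arrays were scaled. After quantile normalization 21 of 39 were called higher (53.8%, background 42.9%). When each array was scaled linearly on its negative and positive control rows, 18 were higher (46.2%, background 49.3%) and 8 lower (20.5%, background 19.1%), shares near the background. The median of the members was 0.06 there, below the 0.13 of all genes tested. The control rows themselves moved with the groups, and their part in the results was not tested. The median of the negative control rows was 5.42 ± 0.124 (SD, n = 5) in HD and 5.67 ± 0.0516 in LD, and that of the positive control rows was 9.28 ± 0.0448 in HD and 9.21 ± 0.0111 in LD. The members are bright genes, with a median signal of 9.75 against 7.53 for all genes tested, and the control-row scaling lowered the differences of the bright members and raised those of the dim ones. All of the 12 members with the largest difference kept their direction and call under it, and those are described first in each complex.

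**Figure D1:**
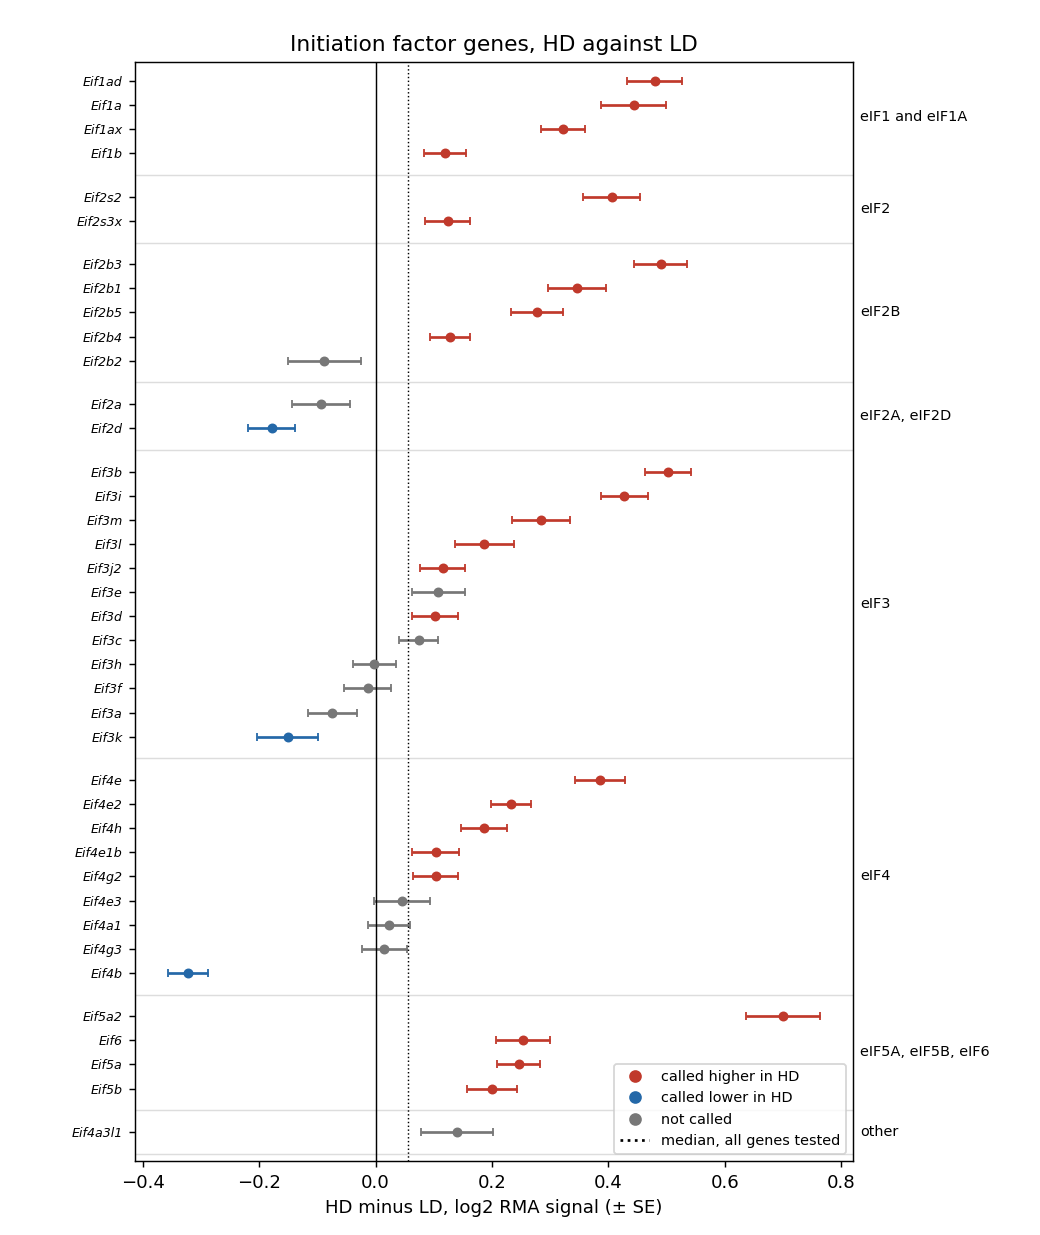
Difference HD minus LD in log2 RMA signal (x axis) for the 39 tested initiation factor genes (rows, grouped by complex), with bars of 1 moderated SE; red points were called higher, blue lower and grey not called, and the dotted line is the median of all genes tested (0.055). Most points lie right of 0, Eif5a2 reaches 0.70, and Eif4b is lowest at -0.32; under the control-row scaling 9 of the differences above 0 were negative.

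The eIF1 and eIF1A group was higher in HD throughout, with all 4 tested genes called (median 0.38), against 31.4% of all genes tested. Eif1ad, which encodes a protein with an eIF1A-like domain, had log2 signals of 8.07, 8.12, 8.06, 8.04 and 7.91 on the 5 HD arrays, against 7.503, 7.57, 7.48, 7.57 and 7.68 on the 5 LD arrays. The lowest HD array lay above the highest LD array, and the rise was 1.39-fold (0.48 ± 0.0475 SE, limma adjusted p = 2.6e-06). Eif1a, a gene for eIF1A, had log2 signals of 9.97, 9.82, 9.78, 9.72 and 9.93 on the 5 HD arrays, against 9.28, 9.53, 9.40, 9.36 and 9.43 on the 5 LD arrays. These groups were also apart, with a rise of 1.36-fold (0.44 ± 0.0557 SE, limma adjusted p = 1.9e-05). The X-linked copy Eif1ax had log2 signals of 9.97, 9.91, 9.88, 9.86 and 9.98 on the 5 HD arrays, against 9.56, 9.66, 9.60, 9.54 and 9.62 on the 5 LD arrays. It rose 1.25-fold (0.32 ± 0.0381 SE, limma adjusted p = 1.1e-05) with no overlap of the groups. Eif1a and Eif1ax encode nearly the same protein and probes may not separate them, so their levels are uncertain as single genes. Eif1b, a close relative of eIF1, averaged 9.81 ± 0.0533 (SD, n = 5) in HD and 9.69 ± 0.0267 in LD and was called higher by 0.12 (limma adjusted p = 0.013), but its difference was 0.01 after the control-row scaling (limma adjusted p = 0.81). Eif1 itself was not analysed here.

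Of eIF2, both tested subunits were called higher, where 31.4% of all genes tested were. Eif2s2, the beta subunit, had log2 signals of 9.12, 9.06, 8.97, 8.97 and 9.11 on the 5 HD arrays, against 8.58, 8.68, 8.68, 8.51 and 8.74 on the 5 LD arrays. Every HD value lay above every LD value, and the rise was 1.33-fold (0.41 ± 0.0492 SE, limma adjusted p = 1.4e-05). Eif2s3x, the gamma subunit that holds GTP and the initiator tRNA, was brighter and changed less, with 11.19 ± 0.0476 (SD, n = 5) in HD and 11.07 ± 0.0536 in LD (0.12, limma adjusted p = 0.015). Its HD and LD arrays overlapped, and its difference was -0.10 after the control-row scaling (limma adjusted p = 0.11). The Y-linked form Eif2s3y was listed at 3.43 in HD and 3.37 in LD, below the medians of the background rows of 3.63 and 3.47, and was not tested. Eif2s1, the alpha subunit whose phosphorylation blocks eIF2B, was not analysed here.

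In eIF2B, the exchange factor that reloads eIF2 with GTP, 4 of 5 subunits were called higher and none lower (median 0.28). Of all genes tested, 31.4% were called higher and 19.5% lower. Eif2b3, the gamma subunit, had log2 signals of 8.12, 8.14, 8.01, 8.04 and 8.03 on the 5 HD arrays, against 7.51, 7.56, 7.58, 7.54 and 7.72 on the 5 LD arrays. The rise of 1.40-fold (0.49 ± 0.0452 SE, limma adjusted p = 1.4e-06) left a wide gap between the groups. Eif2b1, the alpha subunit of the regulatory part, had log2 signals of 8.37, 8.32, 8.25, 8.21 and 8.28 on the 5 HD arrays, against 7.83, 8.001, 7.94, 7.86 and 8.07 on the 5 LD arrays. It rose 1.27-fold (0.35 ± 0.0495 SE, limma adjusted p = 5.9e-05), again without overlap. Eif2b5, the catalytic epsilon subunit, and Eif2b4, the delta subunit, were called higher by 0.28 and 0.13 (limma adjusted p = 1.5e-04 and 0.0075). The beta subunit Eif2b2 went the other way in value, at 8.345 ± 0.16 (SD, n = 5) in HD and 8.43 ± 0.016 in LD, without a call (-0.09, limma adjusted p = 0.25). Its HD arrays were spread far more widely than its LD arrays, and without HD replicate 2, its highest array, Eif2b2 was called lower (-0.15, limma adjusted p = 0.020). The 4 calls of eIF2B held under the control-row scaling (0.25 to 0.55) and under every other alternative that tested them. Eif2b4 was not tested under the stricter filter on dim rows.

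Of the 2 proteins that can deliver Met-tRNA without eIF2, 1 was called lower and none higher. Of all genes tested, 19.5% were called lower and 31.4% higher. Eif2d, which also works in recycling of the small subunit, had log2 signals of 7.91, 7.998, 7.85, 7.89 and 7.81 on the 5 HD arrays, against 8.11, 8.11, 8.02, 8.06 and 8.05 on the 5 LD arrays. All HD values were below all LD values, 1.13-fold lower (-0.18 ± 0.0407 SE, limma adjusted p = 0.0024). Eif2a, an initiation factor that works without GTP, averaged 9.21 ± 0.0977 (SD, n = 5) in HD and 9.31 ± 0.0662 in LD and was not called (-0.09, limma adjusted p = 0.13), but was called lower after quantile normalization (-0.12, adjusted p = 0.029) and after the control-row scaling (-0.16, adjusted p = 0.013).

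The 12 tested subunits of eIF3 did not move together, with a median of 0.11 and a range of -0.15 to 0.50. Of them, 6 were called higher (50%), 1 lower (8.33%) and 5 were not called. The background was 31.4% higher and 19.5% lower of all genes tested. The largest rises were in Eif3b and Eif3i, which in the assembled complex form a module with eIF3g apart from the core of 8 subunits. Eif3b had log2 signals of 11.13, 11.21, 11.18, 11.07 and 11.09 on the 5 HD arrays, against 10.59, 10.61, 10.68, 10.60 and 10.69 on the 5 LD arrays. This was a rise of 1.42-fold (0.50 ± 0.0392 SE, limma adjusted p = 3.4e-07) with all HD arrays above all LD arrays. Eif3i had log2 signals of 9.84, 9.97, 9.80, 9.78 and 9.84 on the 5 HD arrays, against 9.41, 9.43, 9.43, 9.36 and 9.46 on the 5 LD arrays. Its rise of 1.35-fold (0.43 ± 0.0404 SE, limma adjusted p = 1.7e-06) was of like size, while Eif3g was not analysed here. Among the core subunits (a, c, e, f, h, k, l and m), 2 were called higher, 1 lower and 5 were not called, with a median of 0.04. Eif3m had log2 signals of 10.38, 10.49, 10.26, 10.27 and 10.41 on the 5 HD arrays, against 10.07, 10.19, 10.08, 10.01 and 10.05 on the 5 LD arrays. It rose 1.22-fold (0.28 ± 0.05 SE, limma adjusted p = 3.4e-04), and its groups did not overlap.

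Eif3l, the other core subunit that was called higher, differed by 0.19 (limma adjusted p = 0.0077), and Eif3k was called lower. The 5 HD arrays of Eif3k had 10.44, 10.57, 10.29, 10.34 and 10.31, against 10.58, 10.60, 10.52, 10.49 and 10.51 on the LD arrays. HD replicate 2 lay within the LD range and the other 4 HD arrays below it, and the fall of 0.15 (limma adjusted p = 0.026) lost its call without HD replicate 3, 4 or 5 or LD replicate 1 or 2 (adjusted p = 0.058 to 0.066). Eif3a, Eif3f and Eif3h, the last being the brightest member at 12.04 in both groups, differed by -0.07, -0.01 and -0.0018 and were not called. The 95% intervals of Eif3f and Eif3h were -0.10 to 0.07 and -0.08 to 0.08. Eif3c and Eif3e differed by 0.07 and 0.11 and missed the threshold (limma adjusted p = 0.076 and 0.060), though all HD arrays of Eif3c lay above its LD arrays. Eif3e was called higher without HD replicate 4 or LD replicate 2 (0.13 each, adjusted p = 0.042 and 0.029). Median centring called Eif3c and Eif3e higher (limma adjusted p = 0.049 and 0.039). So did ordinary t statistics for Eif3c (adjusted p = 0.019) and the stricter filter on dim rows for Eif3e (limma adjusted p = 0.043). The outer subunits Eif3d and Eif3j2 were called higher by 0.10 and 0.12 (limma adjusted p = 0.045 and 0.024) as deposited. The call of Eif3d was lost without any 1 array other than HD replicate 5 or LD replicate 5 (adjusted p = 0.057 to 0.083), and that of Eif3j2 without HD replicate 3 or LD replicate 2, 3 or 5 (adjusted p = 0.050 to 0.062). Eif3j2 shares most of its sequence with Eif3j1. A second row of Eif3d, at 5.06 in HD and 5.07 in LD, lay below the floor. After the control-row scaling the eIF3 median was -0.07, with Eif3a, Eif3c, Eif3h and Eif3k called lower (-0.33, -0.14, -0.31 and -0.32) and Eif3b, Eif3i and Eif3m still higher (0.30, 0.33 and 0.14). Of all genes tested, 49.3% were called higher and 19.1% lower under that scaling. The difference between Eif3b and Eif3i and the core subunits was not tested.

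**Figure D2:**
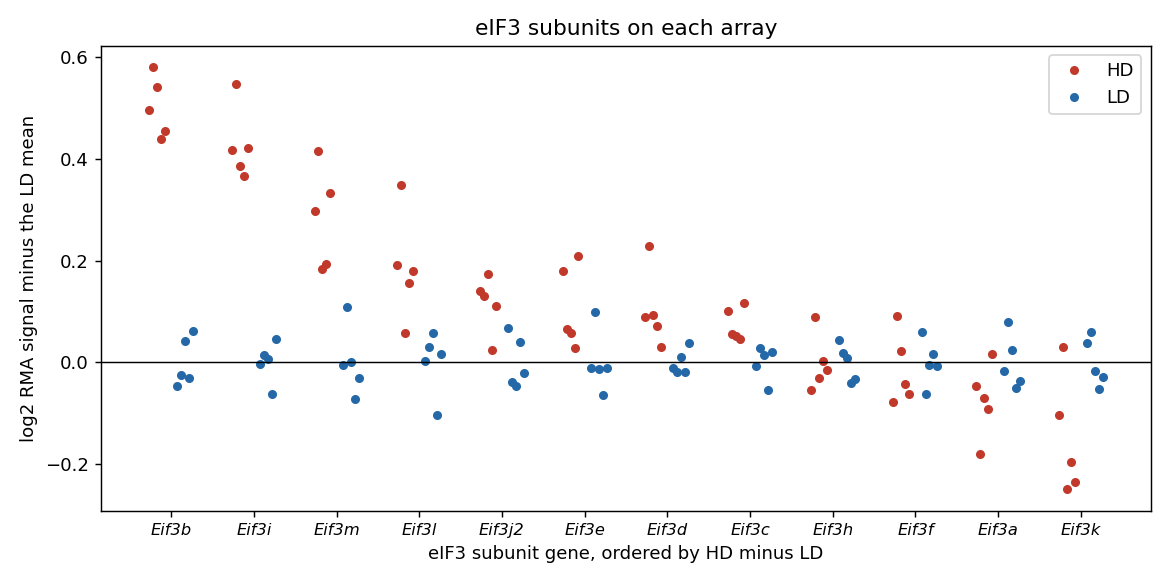
Log2 RMA signal of each array minus the LD mean (y axis) for the 12 eIF3 subunit genes, ordered by HD minus LD (x axis), with the 5 HD arrays in red left of the 5 LD arrays in blue. Eif3b, Eif3i, Eif3m and, by little, Eif3c stand clear of their LD arrays, while Eif3h, Eif3f and Eif3a overlap them. HD replicate 2 was the highest HD array for 8 of the 12 genes. Under the control-row scaling Eif3c, Eif3d, Eif3e and Eif3l were below 0.

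HD replicate 2 stood high among the members as a whole. It had the highest HD value in 21 of 39 tested members, and LD replicate 4 had the lowest LD value in 20. The mean over the 39 members was 9.54, 9.56, 9.49, 9.48 and 9.52 on the HD arrays and 9.33, 9.37, 9.35, 9.31 and 9.37 on the LD arrays. The groups did not overlap with or without HD replicate 2. The same held for the mean over all genes tested, at 7.7129 to 7.7346 on the HD arrays and 7.6863 to 7.692 on the LD arrays. HD replicate 2 (7.7346) and LD replicate 4 (7.6863) were also the highest HD and lowest LD arrays in that mean. The share of all genes with these ranks was not counted. Leaving out HD replicate 2 gave 24 members higher and 4 lower (61.5% and 10.3%, background 30.7% and 19.7%).

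The eIF4 genes differed in direction. Of 9 tested, 5 were called higher (55.6%), 1 lower (11.1%) and 3 were not called (median 0.10). Of all genes tested, 31.4% were called higher and 19.5% lower. Eif4e, the cap-binding subunit whose amount can limit translation, had log2 signals of 10.64, 10.63, 10.60, 10.59 and 10.75 on the 5 HD arrays, against 10.21, 10.34, 10.24, 10.18 and 10.30 on the 5 LD arrays. The groups did not overlap, and the rise was 1.31-fold (0.39 ± 0.043 SE, limma adjusted p = 6.7e-06). Eif4b, a cofactor that stimulates the helicase eIF4A, had log2 signals of 10.94, 10.94, 10.90, 10.85 and 10.90 on the 5 HD arrays, against 11.22, 11.29, 11.21, 11.20 and 11.22 on the 5 LD arrays. It was the member that fell most, 1.25-fold lower in HD (-0.32 ± 0.0343 SE, limma adjusted p = 4.7e-06), with a clear gap between the groups. The helicase gene itself, Eif4a1, had log2 signals of 10.76, 10.66, 10.64, 10.64 and 10.65 on the 5 HD arrays, against 10.63, 10.70, 10.65, 10.61 and 10.64 on the 5 LD arrays. These values overlapped, and the difference of 0.02 was not called (limma adjusted p = 0.62, 95% interval -0.06 to 0.10), although after the control-row scaling it was called lower (-0.16, limma adjusted p = 0.011).

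Eif4h, which acts on eIF4A as eIF4B does, was called higher by 0.19 (limma adjusted p = 0.0014) with groups apart, but differed by -0.02 after the control-row scaling (adjusted p = 0.68). Eif4e2, a cap-binding relative of eIF4E known as a repressor of translation, rose 1.18-fold, at 8.88 ± 0.0341 (SD, n = 5) in HD and 8.65 ± 0.038 in LD (limma adjusted p = 7.2e-05). The remaining relatives of eIF4E were dim: Eif4e1b, the form known from oocytes, had 5.55 in HD and 5.45 in LD, and Eif4e3 had 5.29 in HD and 5.24 in LD. The negative control medians were 5.42 in HD and 5.67 in LD, so Eif4e3 lay below them in both groups and Eif4e1b in LD. Eif4e1b just passed the threshold (0.10, limma adjusted p = 0.049), lost the call without any 1 array other than HD replicate 2 or 5 (adjusted p = 0.051 to 0.12), and Eif4e3 was not called (0.05, adjusted p = 0.45). Among the scaffold proteins, Eif4g2, a relative of eIF4G that lacks the eIF4E-binding part, was called higher by 0.10 (limma adjusted p = 0.037) and lost its call without HD replicate 1, 4 or 5 or LD replicate 1, 3, 4 or 5 (adjusted p = 0.050 to 0.089). Eif4g3 differed by 0.02 and was not called (95% interval -0.07 to 0.10). Eif4g1, the main scaffold, was not analysed here.

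**Figure D3:**
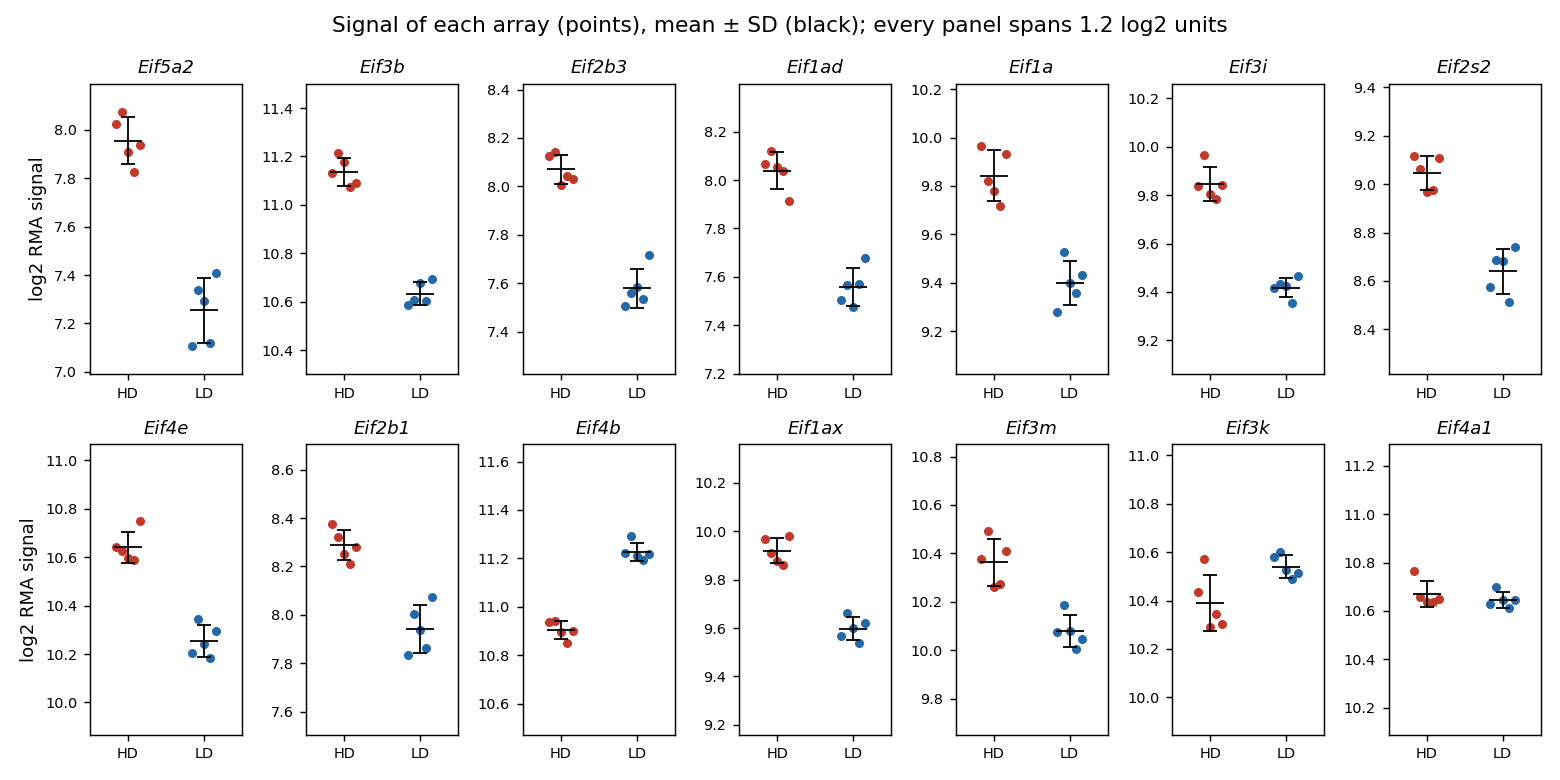
Log2 RMA signal (y axis; each panel spans 1.2 log2 units at its own level) of the 5 HD arrays (red, left) and the 5 LD arrays (blue, right) for the 12 members with the largest called difference, Eif3k and Eif4a1, with the mean and SD in black. In the first 12 panels the groups do not overlap, with HD above LD except in Eif4b; in Eif3k and Eif4a1 they overlap.

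Of the factors that act late, all 4 tested were called higher (median 0.25), where 31.4% of all genes tested were. Eif5a2, an isoform of eIF5A, the hypusine-carrying factor that helps the ribosome through difficult peptide bonds, had log2 signals of 8.02, 8.07, 7.91, 7.83 and 7.94 on the 5 HD arrays, against 7.11, 7.34, 7.29, 7.12 and 7.41 on the 5 LD arrays. This was the largest rise among the members, 1.62-fold (0.70 ± 0.0637 SE, limma adjusted p = 1.3e-06), and it was at the 99.7 percentile of all genes tested. The main isoform Eif5a was brighter and rose less, at 11.75 ± 0.0547 (SD, n = 5) in HD and 11.50 ± 0.0314 in LD (0.25, limma adjusted p = 7.9e-05). Eif6, which keeps the subunits from joining too early and works in maturation of the large subunit, rose by 0.25 (limma adjusted p = 4.6e-04), and Eif5b, which joins the subunits, by 0.20 (limma adjusted p = 0.0016). Of these, Eif5a and Eif5b lost their calls after the control-row scaling (-0.02 and 0.08, limma adjusted p = 0.71 and 0.19), whereas Eif5a2 and Eif6 kept them (0.78 and 0.12).

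Pairs of paralogs, 7 in all and chosen with their values known, were set against each other by a two-sided exact permutation test of the within-array difference (5 HD against 5 LD arrays; the smallest p this allows is 0.0079 before Benjamini-Hochberg adjustment over the 7 pairs). The rise of Eif5a2 exceeded that of Eif5a by 0.45 (95% interval 0.33 to 0.58, exact adjusted p = 0.014), and by 0.80 after the control-row scaling (exact adjusted p = 0.028). Eif4b fell relative to Eif4h by 0.51 (95% interval -0.61 to -0.41, exact adjusted p = 0.014), and by 0.52 after the control-row scaling. Eif1a and Eif1ax, which probes may not separate, differed by 0.12 (exact adjusted p = 0.022). Eif4e exceeded Eif4e2 by 0.15 (exact adjusted p = 0.037), but by 0.01 after the control-row scaling, short of the threshold. The difference of Eif4e from Eif4e2 also missed the threshold after quantile normalization (0.11, exact adjusted p = 0.056) and without HD replicate 5 or LD replicate 1, 3, 4 or 5 (0.13 to 0.16, exact adjusted p = 0.056 to 0.065). The pairs of Eif4e with Eif4e1b and Eif4e3 give no comparison of change, since Eif4e3 lay below the negative control median in both groups and Eif4e1b below it in LD. Eif4g2 and Eif4g3 did not differ past the threshold (0.09, 95% interval -0.03 to 0.21, exact adjusted p = 0.11), but did without LD replicate 2 (0.13, exact adjusted p = 0.024).

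A further 2 symbols that fell under the rule were placed in no complex. Membership rests on the symbol for every member, Eif1ad, Eif5a and Eif5a2 among them, and not on a test of function. Eif4a3l1, a gene copy of the exon junction helicase Eif4a3, had 6.65 ± 0.145 (SD, n = 5) in HD and 6.51 ± 0.0684 in LD and was not called (0.14, limma adjusted p = 0.073), though it was called higher under 7 alternatives, the omission of HD replicate 1 or 3 among them (0.17 and 0.18, adjusted p = 0.046 and 0.019). Eif2c5 carries an old name of the Argonaute family and is listed by RefSeq as a noncoding RNA, so it is no initiation factor by function, and at 3.31 in HD and 3.27 in LD it lay below the floor and was not tested. A further 4 rows that name an initiation factor together with other symbols were left out by the rule.

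**Figure D4:**
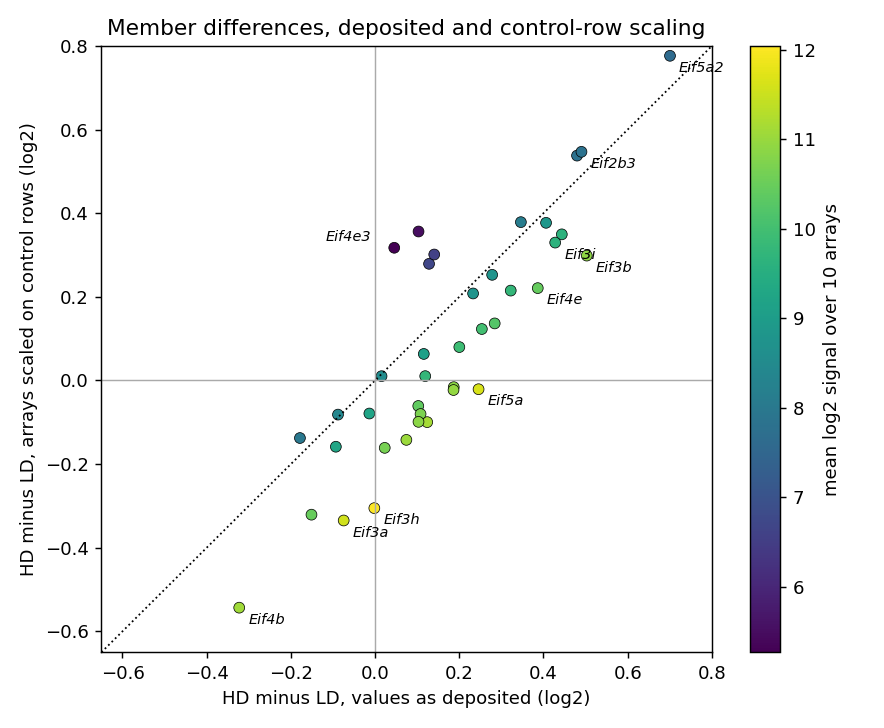
Difference HD minus LD of the 39 tested members with the values as deposited (x axis, log2) and with each array scaled on its control rows (y axis, log2), coloured by mean log2 signal; the dotted line marks equal values. Dim members lie above the line and bright ones below it, the shift runs from -0.30 for Eif3h to 0.27 for Eif4e3, and Eif5a2, Eif2b3, Eif3b and Eif4e stay above 0 on both axes.

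To show the sequence context of members that rose and of the one that fell most, RefSeq promoter windows (build GRCm38.p6, 250 bases before to 50 after the annotated start, matched by symbol) were searched for the E-box CACGTG, the site bound by MYC and related factors, which reads the same on both strands. Of the 41 members, 31 had a window, and 9 of these (29.0%) held the E-box in at least 1 window, against 8.09% of the 27025 genes in the table, which were not matched for base composition. The 9 members that hold it had a median HD minus LD of 0.12, and the 20 tested members with a window and no E-box had 0.16. Of the 9, Eif5a2, Eif4e, Eif5a, Eif4h and Eif1b were called higher, Eif3k was called lower, and Eif4a1, Eif3a and Eif3f were not called. Of the 20 without, 13 were called higher and 2 lower, where 31.4% and 19.5% of all genes tested were. The 10 members without a window enter neither group. Among them Eif2b3, Eif1a, Eif3i, Eif3j2, Eif4e1b, Eif4g2 and Eif6 were called higher, and Eif3e, Eif3h and Eif4e3 were not called. The windows below are 5′ to 3′ on the plus strand with the E-box in capitals. They are those of Eif5a2 (chr3:28781027-28781326, E-boxes starting at -142 and -117 from the start), Eif4e (chr3:138527018-138527317, its second annotated start, E-boxes at -228 and -64, with none in the window of its first start), Eif3b (chr5:140419055-140419354, none) and Eif4b (chr15:102073523-102073822, none).
Eif5a2: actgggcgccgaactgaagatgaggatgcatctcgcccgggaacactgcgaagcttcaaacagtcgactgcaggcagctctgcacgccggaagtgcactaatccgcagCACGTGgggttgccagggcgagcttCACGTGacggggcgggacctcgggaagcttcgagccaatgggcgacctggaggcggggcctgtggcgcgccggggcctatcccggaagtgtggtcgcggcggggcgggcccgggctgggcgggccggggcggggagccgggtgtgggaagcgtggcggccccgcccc
Eif4e: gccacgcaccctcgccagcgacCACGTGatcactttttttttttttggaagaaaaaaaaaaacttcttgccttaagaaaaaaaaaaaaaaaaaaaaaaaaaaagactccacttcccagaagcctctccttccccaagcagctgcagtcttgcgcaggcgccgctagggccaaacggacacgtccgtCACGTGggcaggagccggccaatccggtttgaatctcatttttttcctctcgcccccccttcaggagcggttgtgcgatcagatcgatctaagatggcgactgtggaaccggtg
Eif3b: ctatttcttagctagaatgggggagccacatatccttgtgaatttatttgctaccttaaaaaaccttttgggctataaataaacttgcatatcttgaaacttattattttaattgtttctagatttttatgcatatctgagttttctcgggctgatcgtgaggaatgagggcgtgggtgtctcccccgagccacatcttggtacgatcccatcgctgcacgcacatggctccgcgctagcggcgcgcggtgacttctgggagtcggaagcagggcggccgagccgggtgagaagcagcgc
Eif4b: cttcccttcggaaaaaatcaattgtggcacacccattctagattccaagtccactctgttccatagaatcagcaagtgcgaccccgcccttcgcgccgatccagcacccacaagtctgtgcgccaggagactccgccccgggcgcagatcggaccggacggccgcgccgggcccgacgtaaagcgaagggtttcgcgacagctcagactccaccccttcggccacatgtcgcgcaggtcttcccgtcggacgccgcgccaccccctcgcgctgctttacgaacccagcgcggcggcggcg

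A match describes the letters in the window and says nothing of binding, which was not measured here. The second largest rise (Eif3b) and the largest fall (Eif4b) had no E-box in these windows, while the largest rise had 2.

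Of the 37 other genes of translation listed beside the members, 35 were tested, with 18 called higher and 9 lower (median 0.09), where 31.4% and 19.5% of all genes tested were called (median 0.055). Under the control-row scaling 12 were higher and 10 lower (median 0.04), with a background of 49.3% and 19.1% (median 0.13). The largest difference was in Pdcd4, a protein that binds and inhibits eIF4A, which was 2.03-fold lower, at 9.58 ± 0.0871 (SD, n = 5) in HD and 10.60 ± 0.147 in LD (-1.02 ± 0.0653 SE, limma adjusted p = 7.2e-08). Among the helpers of scanning and recycling, Dhx29, a helicase for structured leaders, rose by 0.59 and Abce1, the recycling ATPase, by 0.55 (limma adjusted p = 7.2e-08 and 3.8e-06). Denr and Mcts1, partners that act in recycling as eIF2D does, were called higher by 0.12 and 0.20, whereas Mcts2, a retrogene copy of Mcts1, was called lower (-0.27). The poly(A)-binding protein gene Pabpc1 and its partner Paip1 were not called (-0.04 and 0.03). Paip2, listed with them, was called lower (-0.13, limma adjusted p = 0.0065), also under the control-row scaling (-0.21, limma adjusted p = 0.0014).

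Of the 11 tested genes that set the activity of eIF2 and eIF4E, 4 were called higher and 3 lower. The background was 31.4% and 19.5% of all genes tested. Of the eIF2 kinases, Eif2ak3 (PERK) and Eif2ak4 (GCN2) were called lower (-0.20 and -0.15), Eif2ak1 (HRI) was called higher by 0.09, and Eif2ak2 (PKR) was not called. The call of Eif2ak1 was lost without any 1 array other than HD replicate 1 or 3 or LD replicate 2 (limma adjusted p = 0.056 to 0.11). Ppp1r15b, the constitutive subunit of the phosphatase that acts on eIF2, rose 1.30-fold (9.36 ± 0.0332 in HD and 8.98 ± 0.0456 in LD, SD, n = 5, limma adjusted p = 1.4e-06), and its stress-induced relative Ppp1r15a was not called (-0.07). The eIF4E-binding protein Eif4ebp2 was called higher by 0.14 and Eif4ebp1 was not called (0.07), while Eif4ebp3 was not analysed here. Eif4enif1, the eIF4E transporter, was called higher by 0.11, and Mknk2, a kinase of eIF4E, was called lower (-0.14, limma adjusted p = 0.029), a call lost without HD replicate 4 or 5 or LD replicate 1 or 3 (adjusted p = 0.051 to 0.072). Both enzymes that make the hypusine of eIF5A were called higher, Dohh by 0.19 and Dhps by 0.17 (limma adjusted p = 9.3e-04 and 0.018).

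In elongation and release, 5 of 9 genes were called higher and 2 lower, against a background of 31.4% and 19.5% of all genes tested. Eef1e1, which encodes a protein of the multi-tRNA synthetase complex, rose 1.59-fold, and the release factor genes Etf1 and Gspt1 rose 1.35-fold and 1.32-fold (limma adjusted p = 1.3e-07, 1.1e-05 and 3.0e-06), and all 3 kept their calls under the control-row scaling. Among the elongation factor genes, Eef1g and Eef1d were called higher by 0.20 and 0.15 (limma adjusted p = 1.2e-04 and 0.0039), Eef1a1 differed by -0.03 and Eef1b2 by 0.05 without a call, and Eef2 was called lower (-0.09, limma adjusted p = 0.029), a call lost without HD replicate 1, 4 or 5 or LD replicate 1, 3 or 4 (adjusted p = 0.051 to 0.072). Mtif2 and Mtif3, which start translation in mitochondria, were called in opposite directions (-0.13 and 0.14), with the call of Mtif3 lost without HD replicate 1 or 2 or LD replicate 3 or 5 (adjusted p = 0.053 to 0.061). Under the control-row scaling Ddx3x, called higher by 0.21, differed by -0.0032, and the calls of Eif2ak1, Eif4ebp2, Eif4enif1, Larp1, Eef1g, Eef2k and Mtif2 were lost. Pabpc1, Eef1a1 and Eef1b2, not called as deposited, were called lower under it (-0.43, -0.37 and -0.21).

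**Figure D5:**
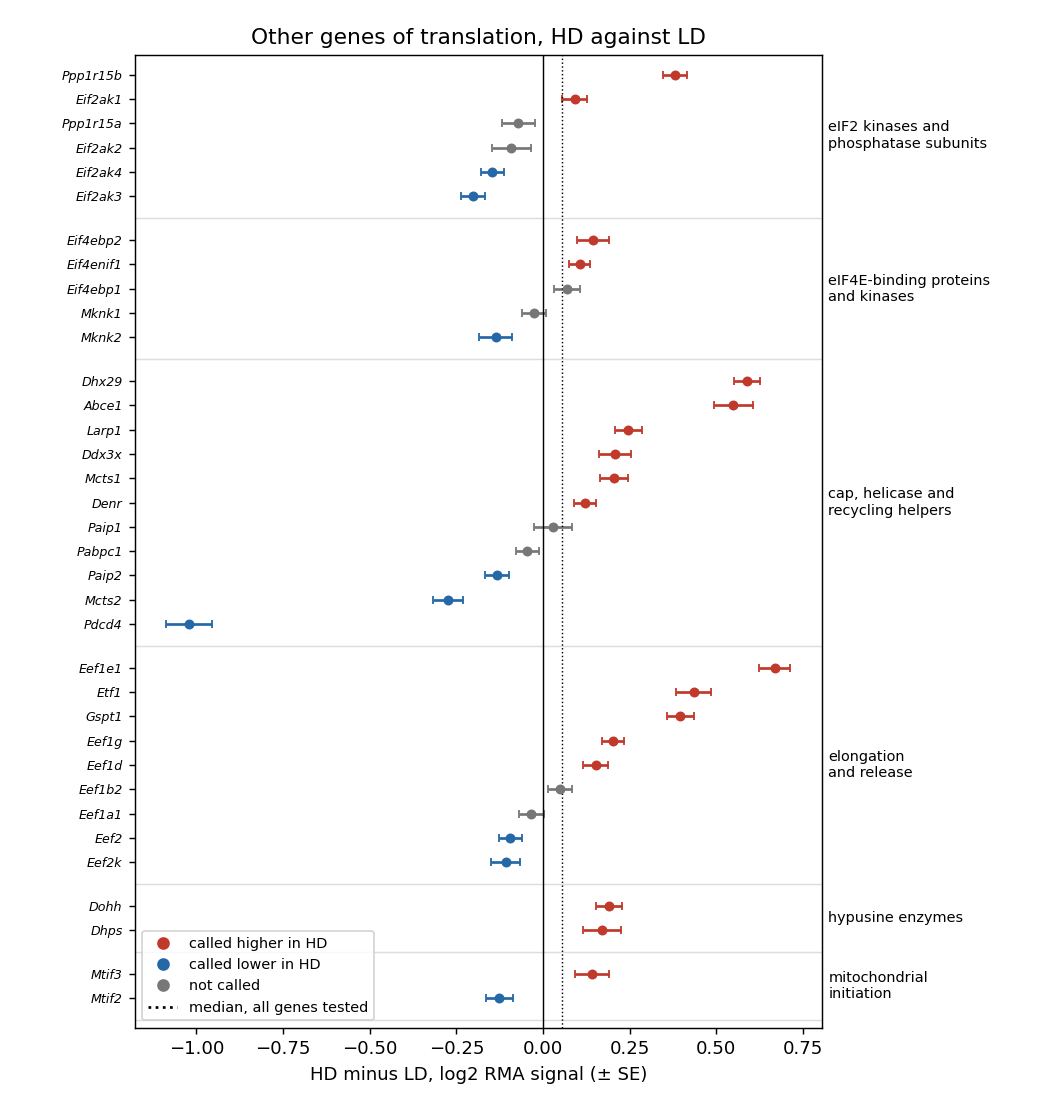
Difference HD minus LD in log2 RMA signal (x axis) with bars of 1 moderated SE for 35 tested genes of translation that are not initiation factors by the rule (rows, in groups), with red points called higher, blue lower and grey not called. Pdcd4 lies at -1.02, apart from the rest, and Eef1e1, Dhx29 and Abce1 lie highest at 0.67, 0.59 and 0.55.

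The markers of an epithelial line were present: Epcam, Krt8, Krt18, Krt14 and Cdh1 had mean signals of 7.69 to 12.22, all above the floor. The summed linear signal of these 5 markers was 11259 to 12025 on the HD arrays and 12510 to 12859 on the LD arrays, and Epcam, Krt18 and Cdh1 were called lower in HD (-0.60, -0.13 and -0.11), while Krt8 and Krt14 were not called (0.03 and 0.11). Of the leukocyte markers Ptprc, Lyz2 and Adgre1, and of the endothelial markers Pecam1, Cdh5 and Kdr, none exceeded the floor, while Cd3e (5.37) and the fibroblast markers Pdgfrb, Thy1 and Col1a1 (5.49, 5.59 and 6.76) lay above it. Of these, Cd3e and Thy1 were called higher in HD (0.16 and 0.12, limma adjusted p = 0.022 and 0.012), and Pdgfrb and Col1a1 were not called. The negative control medians were 5.42 in HD and 5.67 in LD. Cd3e, Pdgfrb and Thy1 lay close to them, at 5.45, 5.55 and 5.65 in HD and, below the median, 5.29, 5.44 and 5.54 in LD. The summed signal of the 4 leukocyte markers with a row was 83 to 94 in HD and 76 to 84 in LD, that of the 3 endothelial markers 66 to 71 and 62 to 68, and that of the 3 fibroblast markers 199 to 230 and 187 to 207. Their part in the results was not tested. In bulk RNA such as this, fewer cells of a type and less RNA per cell cannot be told apart.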

How the data were processed

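RNA of 10 samples of the 4T1 line (5 HD, 5 LD) was hybridised to Affymetrix MTA 1.0 arrays. The deposited table holds log2 values, 1 per feature and array, made by the authors with RMA per the submitters' processing notes; the sources used here do not give its software, version, annotation or build. The log2 scale rests on the values (1.49 to 14.3). Scanner files, detection calls and scan dates were not used here, so a batch could not be looked for. No array repeated another.

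Of 72688 rows, 6732 were control features. The platform annotation listed 32750 rows, 30604 with 1 symbol and 2146 with several; 22818 gene IDs matched RefSeq (GRCm38.p6) and 827 symbols were updated. The brightest row stood for a gene, and 17800 of 30142 genes were tested, those whose mean over the 10 arrays exceeded the median of all row means (log2 5.24). The difference HD minus LD was fitted with limma 3.58.1 (R 4.3.3; lmFit and eBayes, no covariates, two-sided, Benjamini-Hochberg over all 17800 genes, threshold 0.05). Intervals are 95% moderated ones, and those of paralog pairs are ordinary ones. The fit was tested on simulated data.

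The members, lists, paralog pairs and complexes were chosen with earlier results of these data known. Values on every array are given for the 12 called members with the largest difference, for called members opposite to most of their complex, and for Eif4e and Eif4a1; Eif2s1 and Eif4g1, also in that rule, were not analysed here. Eif2d was added after its values were seen. The replicate numbers were not treated as pairs. Alternatives were other scalings, filters, rows per gene, variance models, tests, a replicate block and leaving out each array. For the other genes of translation and the paralog pairs they were chosen after seeing the data.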

Additional observations from a re-analysis of the deposited data

Results flagged for a closer look

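In 4 of the 82 groups of 5 arrays examined (41 members in 2 groups), 1 array lay farther from the others than Dixon's test allows at the 95% level (critical value 0.71), and chance alone flags about 1 in 20 such groups. Eif4a1 was 10.76 on HD replicate 1, with the other 4 HD arrays at 10.64 to 10.66. Eif4e3 was 5.43 on HD replicate 3, with the others at 5.23 to 5.27. Eif4b was 11.29 on LD replicate 2, with the other LD arrays at 11.20 to 11.22, all still above the HD arrays. Eif4g3 was 8.42 on LD replicate 2, with the others at 8.54 to 8.57. Of these genes only Eif4b was called with the values as deposited, and without LD replicate 2 or any other single array its fall stayed between -0.33 and -0.31.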

How the results depend on the processing

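The number of arrays and the scaling limit these results. Of the 39 tested members, 15 of the 25 called higher kept direction and call under all alternatives that tested them. So did 2 of the 3 called lower (Eif4b and Eif2d). The 15 include Eif2b4, which the stricter filter on dim rows left out. Of 11 members not called, 2 stayed so under all. Quantile normalization gave 5 members lower instead of 3 (12.8%, background 16.6%), with medians of 0.0559 for eIF3 and 0.0689 for eIF4. Median centring gave an eIF4 median of 0.13. The control-row scaling gave 8 members lower, a median of 0.0634 over members, 0.28 for eIF1 and eIF1A, 0.14 for eIF2, -0.0701 for eIF3, 0.0102 for eIF4 and 0.10 for eIF5A, eIF5B and eIF6; the median of all genes tested was 0.13 there, and 72.1% of all calls were higher under it and under quantile normalization, against 61.7% as deposited. Differences that changed sign under it were Eif2s3x -0.10, Eif3c -0.14, Eif3d -0.0611, Eif3e -0.08, Eif3l -0.016, Eif4a1 -0.16, Eif4g2 -0.10, Eif4h -0.0229 and Eif5a -0.021. Among the other genes they were Ddx3x -0.0032, Eef1b2 -0.21, Eef2k 0.0043, Ppp1r15a 0.15, Eif4ebp1 -0.09 and Mknk1 0.09. Among the paralog pairs they were Eif4g2 against Eif4g3 -0.11, Eif4e against Eif4e1b -0.14 and Eif4e against Eif4e3 -0.10. As deposited, Eif4e3 lay below the negative control median in both groups and Eif4e1b below it in LD. The dimmer row of Eif3d, below the floor, differed by -0.0112. The stricter filter on dim rows tested 35 members, with a median of 0.19 against 0.047 for all genes tested. Under it 68.6% of members were called higher and 8.57% lower, with a background of 38.5% and 24.1%. Leaving out each array gave eIF4 medians of 0.0752 to 0.1134, 21 to 24 members higher and 2 to 4 lower. The background in these runs was 26.4% to 31.5% higher and 17.2% to 19.7% lower. Why the scalings differ was not tested. The replicate block gave 23 members higher and 3 lower (59% and 7.69%, background 31.8% and 19.1%). Under this block the calls of Eif3d, Eif4e1b and Eif4g2 were lost (adjusted p = 0.071, 0.062 and 0.062). Eif4a3l1 was called higher (adjusted p = 0.043). Arrays that share a number deviated from their groups with correlations of 0.19, -0.091, -0.036, 0.22 and -0.025. Whether such arrays share more than a number was not tested.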
